A study of Mus musculus with 8 samples.

Results

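The genes described here are those of glucose breakdown and of the response to low oxygen, read in mouse bone marrow cells transformed with Hoxa9 and Meis1, before and after removal of Meis1. They were taken by symbol from a list of 47 genes, 26 of glycolysis and 21 of the hypoxia response, and matched to probe sets that the platform annotation gives exactly 1 gene symbol. Of the 47 genes, 43 had at least 1 such probe set, 79 probe sets in all among 28898 named ones on the array. The glycolysis genes cover the transporters, the enzymes and the kinases that guard the way to the mitochondria. The hypoxia genes cover the HIF transcription factors, the enzymes that sense oxygen and their targets. The classes are described apart.

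Expression was measured on 8 Affymetrix arrays, 1 per sample, each from 100 ng of total RNA. All cells were C57BL/6 bone marrow cells that carry a tamoxifen-activated Cre recombinase at the Rosa26 locus (Rosa26-Cre-ERT2), and all had received retroviruses for Hoxa9 and for a Meis1 cDNA flanked by loxP sites. Both groups grew with 10% serum and 5 ng/ml interleukin-3. The 4 samples of the deleted group received 2 µM 4-hydroxytamoxifen, which activates the Cre and removes the retroviral Meis1. The 4 samples labelled Hoxa9 and Meis1, called controls here, did not. The drug and the loss of Meis1 therefore cannot be told apart in this comparison, and the labels do not say how long after the drug the cells were taken, nor whether a group is 1 clone or several. Whether the replicates were separate cultures is not stated, so the p-values reflect the spread among these 8 samples, and that spread may be technical.

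Glycolysis splits glucose into pyruvate. Glucose enters through Slc2a transporters, hexokinases and phosphofructokinase commit it in the upper part of the pathway, and the lower part yields ATP and pyruvate, which lactate dehydrogenase turns into lactate. When oxygen is low, the HIF transcription factors, dimers of an alpha subunit (Hif1a or Epas1) with Arnt, raise many of these enzymes. When oxygen is present, prolyl hydroxylases (the Egln genes) mark the alpha subunits for destruction through the Vhl ubiquitin ligase. HIF binds the core motif ACGTG or GCGTG. In blood stem cells Meis1 is known to raise transcription of Hif1a.

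Values are log2 expression values. A difference is the mean of the deleted group minus the mean of the controls, ± its standard error, with 4 arrays in each group. A gene is said to have risen or fallen where limma's adjusted p was under 0.05 after Benjamini-Hochberg adjustment over all 11836 genes that were tested. By this rule 4206 genes, 35.5% of those tested, passed: 2066 fell (17.5%) and 2140 rose (18.1%). Each tested gene stands on its brightest probe set, after the lowest 40% of probe sets by mean were left out (below 4.29). Of the 47 listed genes 41 were tested, 22 of glycolysis and 19 of the hypoxia response. In all 41 both group means lay above the filter, so no listed gene was tested through 1 group alone. Gpi1, Eno1 and P4ha1 had no probe set of 1 symbol, and Pgam1 only one shared with the pseudogene Pgam1-ps1. Pdk2 (3.84 in deleted cells, 3.88 in controls) and Adm (3.68 and 3.77) were under the filter.

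Array medians lay between 4.69 and 4.74. Deleted replicate 1 stood apart from its group: the SD over genes of its deviations from the group mean was 0.164, against 0.0760 to 0.0891 for the other 7 arrays. Its Gapdh control probe sets read 0.72 higher at the 3′ end than at the 5′ end of the transcript, against -0.07 to 0.04 on the other arrays; this gap is used to judge RNA quality. Without that array 26 of the 41 genes fell and 4 rose, against 22 and 3 with it, while the share of all genes that passed went from 35.5% to 39.5%, and all 25 of the original calls were kept. The spiked bioB control split the arrays into sets that no label names: 3 deleted and 2 control arrays read 4.04 to 4.28, and the other 3 arrays, 1 deleted and 2 control, read 6.43 to 6.61. The retained Meis1 probe set read 5.02 in deleted cells and 5.00 in controls, a difference of 0.024 ± 0.052, and does not check the deletion, since it is not stated to lie within the retroviral cDNA. The label gives a myeloid cell type, and all 10 myeloid identity markers were above the filter: 4 rose and 4 fell, and their summed level was 14.03 to 14.06 in deleted arrays and 13.99 to 14.01 in controls. Other cell type markers moved with the groups. All 11 tested macrophage markers rose, with summed levels of 13.80 to 13.85 against 11.43 to 11.52, among them C1qb (10.93 against 4.64) and Mrc1 (10.97 against 4.54), whose control levels lay under the array medians, so no size of change is given for them. Late neutrophil markers rose in 9 of 11 and fell in 1 (14.83 to 14.88 against 13.95 to 14.00), and 2 of 4 tested megakaryocyte markers rose (10.90 to 11.01 against 7.76 to 7.91). Of 5 tested erythroid markers only Epor rose (0.22 ± 0.07, adjusted p = 0.0351), a call lost without deleted replicate 2 or 4, without control replicate 3 or 4 (0.0809 to 0.0985) and with array set as a block (0.0518). Their summed level, 10.99 to 11.12 against 11.14 to 11.18, is mostly that of Tfrc, a gene of many dividing cells (10.94 against 11.06). Of the lymphoid markers 0 of 4 tested passed (7.10 to 7.27 against 7.12 to 7.20). In these bulk samples fewer cells of a type and less RNA per cell cannot be told apart, and the part of these shifts in the results that follow was not tested.

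Of the 22 glycolysis genes 11 fell (50%, against 17.5% of all genes tested), 2 rose (9.09%, against 18.1%) and 9 did not pass. The mean level of the 22 in controls was 9.64, against 7.24 over all genes tested, and the part of level in these shares was not tested. Their median difference was -0.21, against -0.0044 over all genes tested, and 18 of the 22 differences were negative. The genes that fell ran from the lactate exporter Slc16a3 through the upper and lower enzymes to both tested pyruvate dehydrogenase kinases, and most were modest: only Aldoc among the glycolysis genes fell at least 2-fold. The 2 genes that rose were the hexokinase Hk2 and Pfkfb4, a regulator of the phosphofructokinase step. Lower in deleted cells without overlap between the groups were 11 of the 22 genes, 10 of them among the falls, beside 18.9% of all genes tested. Higher without overlap were 4 of the 22, both genes that rose among them, beside 19.7% of all genes tested. Of the 22 genes 0 rose at least 2-fold, as 2.51% of all genes tested did. With array set as a block 12 fell and 2 rose, beside 35.8% of all genes that passed. Within the larger array set 9 fell and 2 rose, beside 17.9% of all genes, and within the smaller one 5 fell and 0 rose, beside 18.2%; the smaller set has 1 deleted array, which is assumed to vary like the others.

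**Figure D1:**
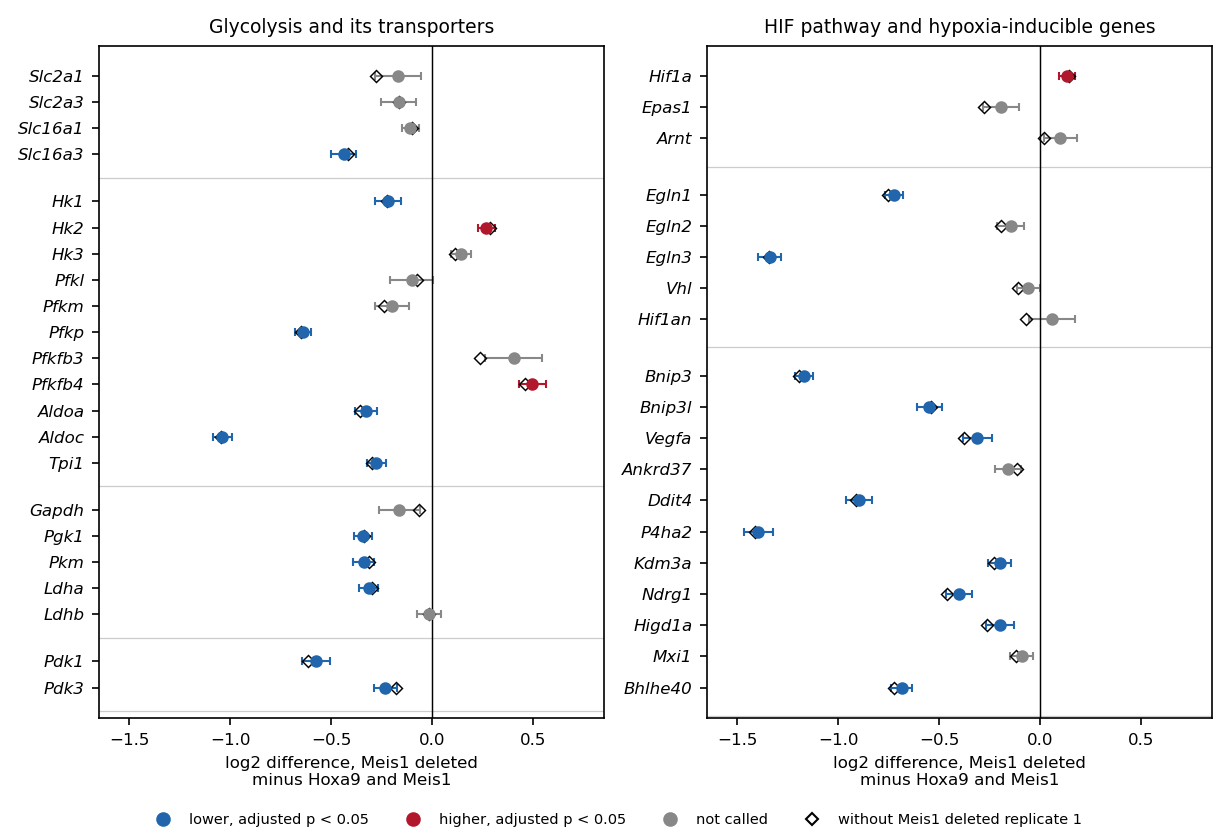
Log2 difference (deleted minus control) of each of the 41 tested genes, grouped by role, with bars for the standard error over 4 arrays a group. Blue genes fell and red genes rose at adjusted p under 0.05, grey genes did not pass, and open diamonds are the differences without deleted replicate 1. P4ha2 (-1.40), Egln3 (-1.34), Bnip3 (-1.17) and Aldoc (-1.04) lie farthest to the left, and Pfkfb4 (0.49) farthest to the right.

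Among the 4 transporters 1 fell. Slc16a3, the MCT4 exporter of lactate, read 5.46, 5.53, 5.57 and 5.54 in deleted replicates 1 to 4 and 6.04, 5.87, 5.86 and 6.08 in the controls. Every deleted array lay below every control (-0.44 ± 0.06, adjusted p = 0.000439). The main glucose importer Slc2a1 read 9.73, 9.26, 9.21 and 9.47 against 9.48, 9.51, 9.69 and 9.68. Deleted replicate 1 was its highest array and the groups overlapped (-0.17 ± 0.11, adjusted p = 0.277), but without that array the difference was -0.28 and passed (adjusted p = 0.0236). The second importer, Slc2a3, differed by -0.17 ± 0.09 (adjusted p = 0.176), and passed with array set as a block (-0.22, adjusted p = 0.0136). The lactate and pyruvate carrier Slc16a1 differed by -0.11 ± 0.04 (adjusted p = 0.0757), with no overlap between groups.

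The upper enzymes moved both ways, 5 down and 2 up of 11 tested. Aldoc, an aldolase that is best known from brain, had the largest fall of the glycolysis genes. It read 9.71, 9.75, 9.70 and 9.59 in deleted cells and 10.75, 10.77, 10.72 and 10.68 in controls. The deleted arrays stood at 48.6% of the control level on the linear scale, a log2 difference of -1.04 ± 0.05 (adjusted p = 2.89e-07), and a second probe set gave -0.75. Pfkp, the platelet-type phosphofructokinase, read 10.28, 10.28, 10.25 and 10.21 against 10.86, 10.90, 10.92 and 10.89. Its groups were tight and well apart (-0.64 ± 0.04, adjusted p = 2.53e-06), at 64.1% of the control level, though a second probe set gave a smaller difference of -0.35. The other phosphofructokinase isoforms did not pass: Pfkm differed by -0.20 ± 0.08 (adjusted p = 0.0983) and Pfkl by -0.10 ± 0.11 (adjusted p = 0.50). Pfkm passed without deleted replicate 1 (-0.24, adjusted p = 0.0476) and without control replicate 4 (-0.27, adjusted p = 0.0146).

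Aldoa, the main aldolase of most tissues, read 11.80, 11.77, 11.71 and 11.61 in deleted cells and 12.11, 12.07, 12.01 and 12.02 in controls. It fell without overlap (-0.33 ± 0.06, adjusted p = 0.00138). Tpi1, which interconverts the 2 products of aldolase, read 11.85, 11.72, 11.75 and 11.82 against 12.05, 12.01, 12.10 and 12.08. It too was lower on every deleted array (-0.28 ± 0.05, adjusted p = 0.00161).

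The hexokinases, which trap glucose in the cell, were split. Hk1, the housekeeping isoform, read 9.22, 9.16, 9.11 and 9.31 in deleted cells and 9.40, 9.30, 9.51 and 9.47 in controls. The groups overlapped at deleted replicate 4 and control replicate 2, and the difference was -0.22 ± 0.06 (adjusted p = 0.0241). That call was lost without deleted replicate 2 (adjusted p = 0.0620) or 3 (0.0670) and without control replicate 3 (0.0708) or 4 (0.0661). Hk2, the inducible isoform, went the other way: 9.83, 9.89, 9.91 and 9.89 in deleted cells against 9.59, 9.60, 9.67 and 9.60. Every deleted array exceeded every control (0.27 ± 0.04, adjusted p = 0.00105), a level 120.3% of that in controls. Hk3, found in myeloid cells, differed by 0.14 ± 0.05 in the same direction (adjusted p = 0.0540), and passed under 5 alternatives (0.0211 to 0.0449): an offset of 64, quantile normalization, the lowest 60% left out, mean of probe sets and a trended and robust prior.

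Pfkfb4 rose. It makes and degrades fructose 2,6-bisphosphate, the activator of phosphofructokinase. It read 7.11, 7.06, 6.89 and 6.98 in deleted cells and 6.51, 6.51, 6.41 and 6.64 in controls, without overlap (0.49 ± 0.07, adjusted p = 0.000373). Its relative Pfkfb3 read 7.93, 7.25, 7.29 and 7.24 against 7.04, 6.999, 7.07 and 6.997. All deleted arrays were above all controls, but deleted replicate 1 was far above the other 3, and the difference of 0.40 ± 0.14 did not pass (adjusted p = 0.0519). Without that array it was 0.24 and passed (adjusted p = 0.00184), and without deleted replicate 4 it was 0.47 (adjusted p = 0.0483). A second Pfkfb3 probe set differed by -0.17 at levels of 4.24 and 4.41, about the filter level of 4.29, too dim to set against the first.

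In the lower part of the pathway 3 of 5 tested enzymes fell. Pgk1, the first ATP-yielding step, read 12.22, 12.24, 12.21 and 12.28 in deleted cells and 12.55, 12.55, 12.65 and 12.58 in controls (-0.35 ± 0.04, adjusted p = 0.000243). Pkm, the pyruvate kinase of most tissues, read 10.63, 10.77, 10.71 and 10.71 against 11.06, 11.11, 11.03 and 10.97 (-0.34 ± 0.05, adjusted p = 0.000625). Ldha, the lactate dehydrogenase subunit that favours lactate, read 12.01, 12.04, 12.03 and 12.15 against 12.35, 12.35, 12.40 and 12.40 (-0.32 ± 0.05, adjusted p = 0.000629). None of the 3 had overlapping groups, and the deleted arrays stood at 78.7%, 78.9% and 80.4% of the control level. The other subunit, Ldhb, differed by -0.018 ± 0.06 (adjusted p = 0.848).

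Gapdh, often used as a reference gene, read 12.28, 12.75, 12.71 and 12.57 in deleted cells and 12.84, 12.82, 12.68 and 12.64 in controls. The lowest value was deleted replicate 1, the groups overlapped, and the difference of -0.17 ± 0.10 did not pass (adjusted p = 0.245). It was -0.067 without that array. The array's own Gapdh control probe set for the 3′ end read 12.32, 12.49, 12.49 and 12.42 against 12.61, 12.64, 12.54 and 12.52. That set showed no overlap (-0.15, two-sided exact permutation p = 0.0286, the smallest that 70 assignments allow), and a difference of -0.11 without deleted replicate 1. The control sets for the middle and the 5′ end overlapped between the groups (-0.32 and -0.33, exact permutation p = 0.0571 for each), and differed by -0.14 and -0.11 without deleted replicate 1. These probe sets lie near the highest value of the whole table, 13.22. Several glycolytic enzymes also have near-identical pseudogene copies, whose part in the probe set signals was not tested.

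Both tested pyruvate dehydrogenase kinases, which hold pyruvate back from the mitochondria, fell. Pdk1, a known HIF target, read 10.68, 10.40, 10.51 and 10.65 in deleted cells and 11.06, 11.13, 11.21 and 11.14 in controls. The gap was -0.58 ± 0.07 (adjusted p = 0.000176), and its other probe sets differed by -0.81 and -0.59. Pdk3 read 8.57, 8.75, 8.79 and 8.77 against 8.99, 8.90, 8.96 and 8.97. It fell by less (-0.23 ± 0.06, adjusted p = 0.0129), with deleted replicate 1 the lowest array and no overlap.

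**Figure D2:**
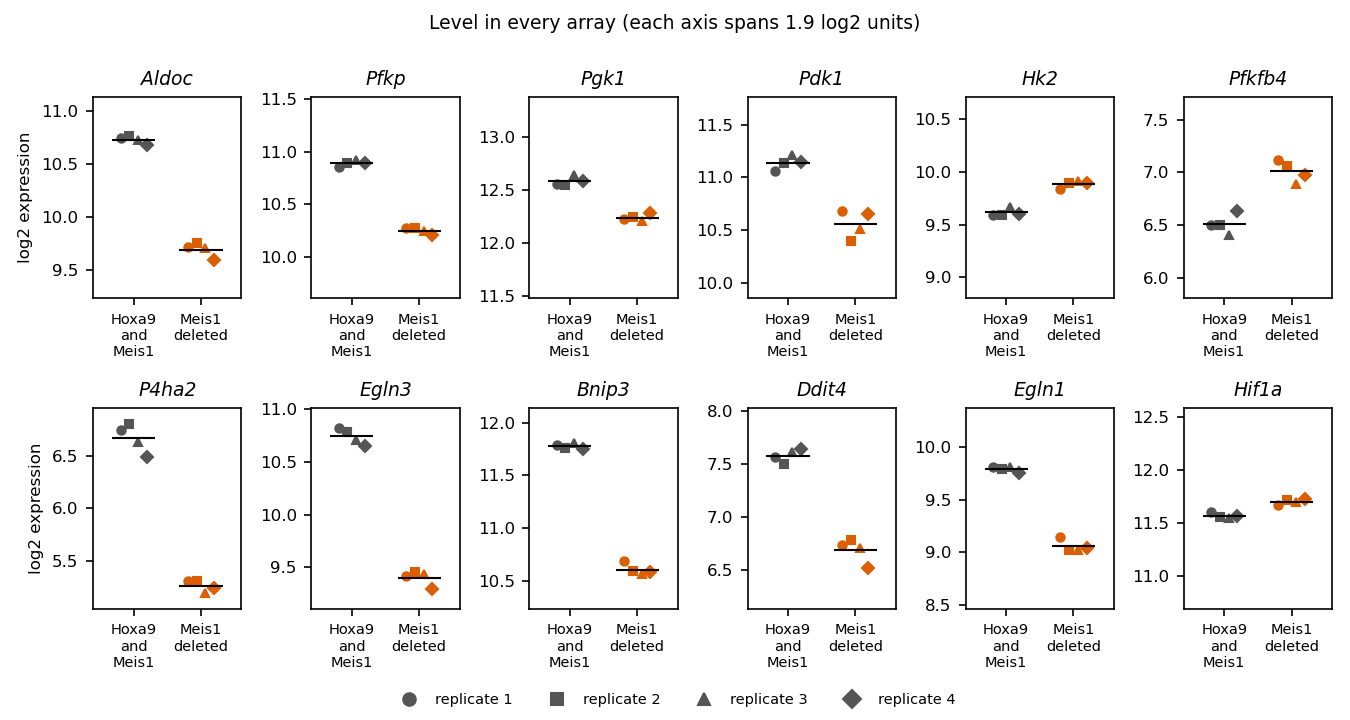
Log2 level on each of the 8 arrays for 12 genes, 6 of each class, with control arrays in grey, deleted arrays in orange, a symbol for each replicate number and a line at each group's mean. The groups lie apart in every panel, with the deleted arrays lower in 9 and higher in Hk2 (9.83 to 9.91 against 9.59 to 9.67), Pfkfb4 and Hif1a.

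Promoter sequences were set beside the glycolysis results because HIF's core motif is known from the promoters of several of these genes. The 250 bases before the RefSeq start (GRCm38.p6) were searched for ACGTG or GCGTG on both strands; the E-box CACGTG contains ACGTG and so counts too. Of the glycolysis genes tested, 21 had a promoter in the table and 20 held a match in at least 1 promoter, 10 of 11 that fell and 10 of 10 that did not. The motif is common: 59.2% of 9588 tested genes with a promoter held it, as did 65.4% of 1694 that fell, 56.6% of 1759 that rose and 41.5% of all 27018 genes with a promoter. For ACGTG alone the count was 12 of 21 glycolysis genes, against 24.6% of tested genes. Pgk1 and Ldha are shown as genes that fell together, and Hk2 as a gene that rose, each 5′ to 3′ along its own strand with matches on either strand in capitals (a match on the other strand reads CACGT or CACGC).
Pgk1 lies at chrX:106186850-106187099 on the plus strand, Ldha at chr7:46845554-46845803 on the plus strand and Hk2 at chr6:82774455-82774704 on the minus strand.
Pgk1: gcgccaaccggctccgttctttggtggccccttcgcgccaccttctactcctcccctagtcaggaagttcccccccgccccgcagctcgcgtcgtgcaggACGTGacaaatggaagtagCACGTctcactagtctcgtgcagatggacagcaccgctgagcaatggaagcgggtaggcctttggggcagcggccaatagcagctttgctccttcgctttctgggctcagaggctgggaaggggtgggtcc
Ldha: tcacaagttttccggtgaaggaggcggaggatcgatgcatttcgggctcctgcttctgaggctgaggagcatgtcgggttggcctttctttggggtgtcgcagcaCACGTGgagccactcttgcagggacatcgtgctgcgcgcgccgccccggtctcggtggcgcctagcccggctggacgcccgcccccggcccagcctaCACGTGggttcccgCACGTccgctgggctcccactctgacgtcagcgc
Hk2: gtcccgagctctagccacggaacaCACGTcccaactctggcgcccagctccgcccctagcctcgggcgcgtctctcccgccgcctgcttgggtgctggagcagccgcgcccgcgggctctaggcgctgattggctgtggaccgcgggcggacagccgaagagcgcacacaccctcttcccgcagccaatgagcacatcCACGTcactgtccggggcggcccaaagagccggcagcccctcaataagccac
Pgk1 has matches that begin 150 and 131 bases before the start, and Hk2 has them at 226 and 52. Ldha has 2 E-boxes, each read on both strands (at 145 and 144, and at 48 and 47), and a further match at 34. A match is a description of the sequence, not a site of binding, and the part of these matches in the results was not tested.

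Of the 19 hypoxia response genes 11 fell (57.9%, against 17.5% of all genes tested), 1 rose (5.26%, against 18.1%) and 7 did not pass. Their mean level in controls was 8.93, against 7.24 over all genes tested, and the part of level in these shares was not tested. The median difference was -0.20 and the mean -0.43, since a few genes fell far more than the rest. P4ha2, Egln3 and Bnip3 fell at least 2-fold. With Aldoc they make 4 of the 41 genes that did; 80 genes, 0.676% of those tested, fell that far. The HIF subunits themselves differed little; the falls were in the hydroxylases, 2 of 5 with Vhl, and in the hypoxia-inducible genes, 9 of 11. Lower without overlap were 10 of the 19 genes, all among the falls, beside 18.9% of all genes tested. With array set as a block 11 fell and 1 rose (35.8% of all genes passed), within the larger array set 7 fell and 0 rose (17.9%), and within the smaller one, with its 1 deleted array, 8 fell and 0 rose (18.2%). Macrophage markers rose on the same arrays (13.80 to 13.85 against 11.43 to 11.52), and their part was not tested.

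Hif1a, the oxygen-regulated alpha subunit, was the 1 gene of this class to rise. It read 11.67, 11.72, 11.70 and 11.72 in deleted cells and 11.60, 11.56, 11.55 and 11.57 in controls, with all deleted arrays above all controls. The rise was small (0.13 ± 0.04, adjusted p = 0.0304), and a second probe set differed by -0.17 without passing. The call was lost without any 1 of deleted replicates 2, 3 or 4 (adjusted p = 0.0733, 0.0675 and 0.0703) or of control replicates 2, 3 or 4 (0.0731, 0.0798 and 0.0673), and the mean of its probe sets gave -0.018. Epas1, the HIF-2 alpha subunit, read 5.88, 5.42, 5.57 and 5.64 against 5.89, 5.74, 5.82 and 5.83. Deleted replicate 1 lay among the controls, and the difference of -0.19 ± 0.09 did not pass (adjusted p = 0.124). Without that array it was -0.28 and passed (adjusted p = 0.00661). Arnt, the shared partner, read 8.15, 7.80, 7.76 and 7.91 against 7.75, 7.79, 7.81 and 7.87, and overlapped (0.10 ± 0.08, adjusted p = 0.396). Transcript levels say nothing of the HIF proteins, which are set mainly by degradation.

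Of the prolyl hydroxylases, Egln3 and Egln1 fell and Egln2 did not pass. Egln3 (PHD3), itself a strongly HIF-induced gene, read 9.41, 9.46, 9.43 and 9.29 in deleted cells and 10.82, 10.78, 10.70 and 10.65 in controls. This is 39.5% of the control level, a difference of -1.34 ± 0.06 (adjusted p = 1.49e-07), and a second probe set gave -1.31. Egln1 (PHD2), the main oxygen sensor, read 9.15, 9.03, 9.03 and 9.05 against 9.80, 9.79, 9.81 and 9.75. It stood at 60.5% of the control level (-0.72 ± 0.05, adjusted p = 2.30e-06), with -0.76 for its second probe set. Egln2 (PHD1), not known as hypoxia-induced, read 8.28, 8.18, 8.11 and 7.997 against 8.36, 8.33, 8.24 and 8.21. Its groups overlapped and it did not pass (-0.15 ± 0.07, adjusted p = 0.124), though it did without deleted replicate 1 (-0.19, adjusted p = 0.0298) and with array set as a block (-0.18, adjusted p = 0.0227). Vhl, the ligase subunit that binds hydroxylated HIF alpha, read 7.66, 7.45, 7.47 and 7.46 against 7.59, 7.61, 7.53 and 7.54. Its highest array was deleted replicate 1 and the difference was -0.06 ± 0.06 (adjusted p = 0.468). Hif1an, the asparagine hydroxylase FIH, differed by 0.06 ± 0.12 (adjusted p = 0.738), and by -0.069 without deleted replicate 1.

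Among the hypoxia-inducible genes, P4ha2 fell furthest. It encodes a subunit of the prolyl hydroxylase of collagen, and read 5.31, 5.31, 5.20 and 5.25 in deleted cells and 6.75, 6.80, 6.63 and 6.48 in controls. The deleted arrays stood at 38.0% of the control level (-1.40 ± 0.07, adjusted p = 5.32e-07), and the lowest control was well above the highest deleted array. Bnip3, a mitochondrial protein of mitophagy, read 10.69, 10.59, 10.56 and 10.58 against 11.79, 11.76, 11.81 and 11.75. It was at 44.5% (-1.17 ± 0.05, adjusted p = 7.23e-08). Its paralogue Bnip3l read 10.15, 10.29, 10.23 and 10.03 against 10.76, 10.75, 10.67 and 10.72. It fell without overlap (-0.55 ± 0.06, adjusted p = 0.000104), with -0.56 and -0.83 for its other probe sets.

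Ddit4, Bhlhe40 and Ndrg1 fell as well. Ddit4 (REDD1), an inhibitor of mTORC1, read 6.73, 6.78, 6.70 and 6.51 in deleted cells and 7.57, 7.49, 7.61 and 7.64 in controls (-0.90 ± 0.07, adjusted p = 6.32e-06). Bhlhe40 (DEC1), a transcriptional repressor, read 10.49, 10.36, 10.31 and 10.35 against 11.11, 11.06, 11.06 and 11.03 (-0.69 ± 0.05, adjusted p = 7.48e-06). Ndrg1, a growth and differentiation related gene, read 8.77, 8.55, 8.48 and 8.57 against 8.95, 8.98, 9.05 and 8.997 (-0.40 ± 0.06, adjusted p = 0.00106). No groups overlapped in these 3 genes. In Bhlhe40 and Ndrg1 deleted replicate 1 was the array nearest to the controls.

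The remaining falls were smaller. Vegfa, the angiogenic factor, read 9.01, 8.73, 8.74 and 8.76 in deleted cells and 9.19, 9.15, 9.09 and 9.05 in controls (-0.31 ± 0.07, adjusted p = 0.00789). Its second probe set gave -0.51, with overlap between the groups. Kdm3a, a histone demethylase, read 9.18, 9.14, 9.04 and 9.01 against 9.37, 9.25, 9.22 and 9.33 (-0.20 ± 0.06, adjusted p = 0.0223). Higd1a, a mitochondrial protein, read 11.02, 10.76, 10.74 and 10.78 against 10.96, 10.99, 11.11 and 11.05 (-0.20 ± 0.07, adjusted p = 0.0490). On the brightest probe set Vegfa and Kdm3a did not overlap, but deleted replicate 1 of Higd1a lay among the controls. The Kdm3a call was lost without deleted replicate 3 or 4 (adjusted p = 0.0622 and 0.0597) or control replicate 1 or 4 (0.0624 and 0.0602). The Higd1a call was lost when any 1 array other than deleted replicate 1 was left out (adjusted p = 0.0600 to 0.129). Its dimmer second probe set, tested alone, gave -0.36 without overlap (adjusted p = 0.0241), at 5.71 in deleted cells and 6.07 in controls. Ankrd37 (-0.16 ± 0.06, adjusted p = 0.0858) and Mxi1 (-0.09 ± 0.06, adjusted p = 0.232) did not pass.

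The promoters of the 3 genes of this class that fell furthest show how differently the motif is placed among them. Of the tested hypoxia genes 15 had a promoter in the table. In at least 1 promoter 13 of them held ACGTG or GCGTG, 8 of 8 that fell and 5 of 7 that did not. By the same rule 59.2% of tested genes with a promoter held it. Vegfa has 2 matches in 1 promoter, chr17:46025164-46025413, and 0 in the other, chr17:46032378-46032627. Kdm3a has 1 match at chr6:71632918-71633167 and 0 in its other promoters. Bhlhe40, Ndrg1, Epas1 and Bnip3l had no entry. P4ha2 lies at chr11:54100674-54100923 on the plus strand, Egln3 at chr12:54203875-54204124 on the minus strand and Bnip3 at chr7:138909507-138909756 on the minus strand, again with matches on either strand in capitals.
P4ha2: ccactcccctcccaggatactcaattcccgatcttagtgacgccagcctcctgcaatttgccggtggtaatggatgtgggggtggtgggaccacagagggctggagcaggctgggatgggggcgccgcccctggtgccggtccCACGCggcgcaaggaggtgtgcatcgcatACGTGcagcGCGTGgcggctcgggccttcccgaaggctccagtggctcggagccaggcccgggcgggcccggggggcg
Egln3: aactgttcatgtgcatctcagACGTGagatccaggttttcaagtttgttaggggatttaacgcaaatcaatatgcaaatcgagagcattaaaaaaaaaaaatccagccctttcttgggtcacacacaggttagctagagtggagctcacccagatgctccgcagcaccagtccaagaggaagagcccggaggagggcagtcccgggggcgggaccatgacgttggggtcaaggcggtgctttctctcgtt
Bnip3: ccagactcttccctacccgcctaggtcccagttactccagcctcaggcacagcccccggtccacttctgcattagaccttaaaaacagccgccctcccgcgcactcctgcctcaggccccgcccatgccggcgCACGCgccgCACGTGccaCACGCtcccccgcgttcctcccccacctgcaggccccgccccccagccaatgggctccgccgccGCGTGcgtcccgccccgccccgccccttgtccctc
P4ha2 has matches at 107, 78 and 69 bases before the start. Egln3 has 1 match, at 229. Bnip3 has 5, at 117, 108, 107, 99 and 35, of which those at 108 and 107 are the 2 strands of 1 E-box. The part of these matches in the falls was not tested.

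Many of the genes are read by more than 1 probe set, which gives a second reading from the same RNA. Each named probe set was also tested alone with no filter, where 21.5% of 28898 passed in either direction. Of the 79 probe sets of the listed genes 36 passed lower and 3 higher. With the filter kept, 36 of 68 passed lower and 3 higher, beside 32.8% of 18749 that passed in either direction. Among 21 genes with at least 2 probe sets above the filter, all probe sets of 17 pointed 1 way, and in 10 all passed. The like counts over all genes with several probe sets were not taken. Arnt, Hif1a, Pfkfb3 and Pfkl had probe sets in both directions, though 0 genes passed in both. In Arnt and Pfkfb3 the probe set with the negative difference lay about the filter level (means of 4.28 and 4.30 in Arnt). Aldoa shows the spread within a gene: its 4 probe sets differed by -0.33, -0.41, -0.48 and -0.56, the smallest difference on the brightest probe set, which reads 12.05 in controls against 11.93, 11.48 and 11.31.

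**Figure D3:**
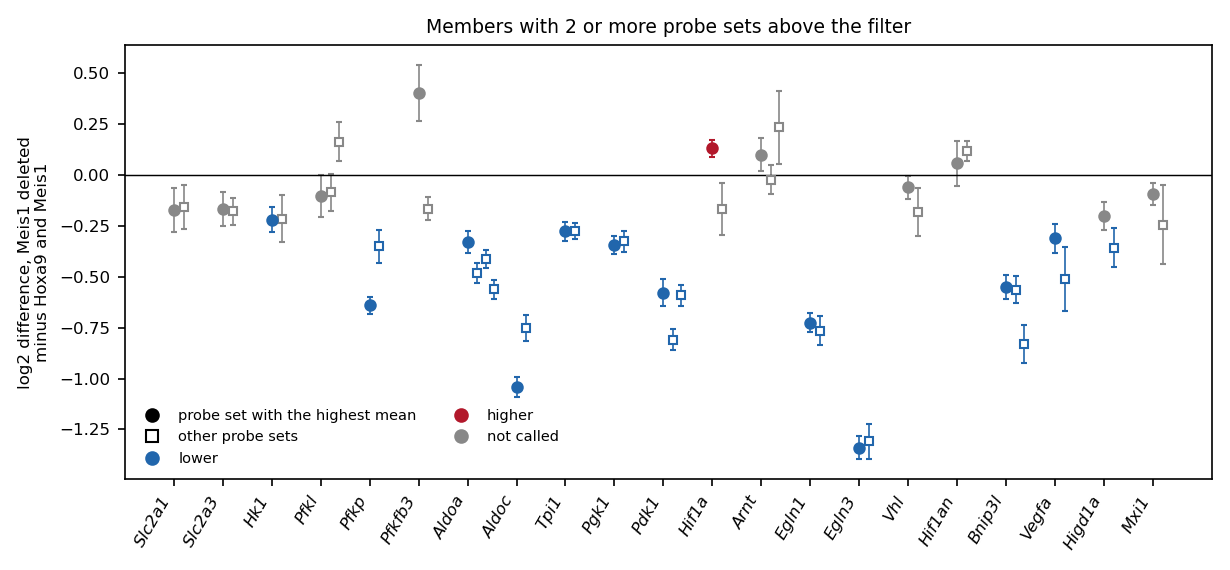
Log2 difference (deleted minus control) of every probe set above the filter for the 21 genes with at least 2 of them, each probe set tested alone without a filter, with bars for the standard error. Filled circles are the brightest probe set of a gene and open squares the others; blue ones fell, red ones rose and grey ones did not pass at adjusted p under 0.05. Egln3 (-1.34 and -1.31) and Egln1 (-0.72 and -0.76) have close probe sets, whereas those of Hif1a (0.13 and -0.17) and Pfkfb3 (0.40 and, on a dim probe set, -0.17) lie on either side of 0.

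Other genes of the same pathways, outside the 47, were counted from lists, beside the 17.5% of all genes tested that fell and the 18.1% that rose. Of 15 other glycolysis genes tested, 3 fell and 3 rose (median 0.020). Pgm1, which feeds glucose from glycogen into the pathway, fell (-0.51 ± 0.05, adjusted p = 4.90e-05), though the mean of its probe sets gave -0.11 and did not pass (adjusted p = 0.0978). The ADP-dependent glucokinase Adpgk rose (0.44 ± 0.10, adjusted p = 0.00638), and the muscle enolase Eno3 fell (-0.35 ± 0.08, adjusted p = 0.00849). Glycogen genes fell in 3 of 6 and rose in 0 (median -0.10): the branching enzyme Gbe1 (-0.80 ± 0.05, adjusted p = 1.59e-06), the synthase Gys1 (-0.50 ± 0.06, adjusted p = 0.000213) and the phosphorylase Pygl (-0.24 ± 0.07, adjusted p = 0.0196). Gluconeogenesis genes fell in 2 of 4 (median -0.26), Pck2 (-0.89 ± 0.08, adjusted p = 3.12e-05) and Pcx (-0.36 ± 0.10, adjusted p = 0.0177). The Pygl call was lost without deleted replicate 4 (adjusted p = 0.0501) or control replicate 1 or 2 (0.0555 and 0.0567), and the Pcx call without control replicate 1 or 2 (0.0501 and 0.0516).

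Of 33 other hypoxia-inducible genes tested 10 fell and 5 rose, 30.3% and 15.2%, with a median of -0.09. The 3 with the smallest adjusted p all fell: Selenbp1 (-1.60 ± 0.06, adjusted p = 3.86e-08), the mitochondrial Fam162a (-0.68 ± 0.04, adjusted p = 1.02e-06) and the adenylate kinase Ak4 (-0.65 ± 0.05, adjusted p = 5.41e-06). Among 9 other regulators of HIF 1 fell, the ubiquitin ligase Siah1a, which targets prolyl hydroxylases (-0.38 ± 0.06, adjusted p = 0.00149), and 0 rose. Of 4 glucose-sensing genes Arrdc4 fell (-0.66 ± 0.05, adjusted p = 8.54e-06) and its relative Txnip rose (0.14 ± 0.04, adjusted p = 0.0231). The Txnip call was lost without deleted replicate 3 or 4 or control replicate 1 (adjusted p = 0.0534, 0.0527 and 0.0640), and the mean of its probe sets gave a difference of -0.0014.

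**Figure D4:**
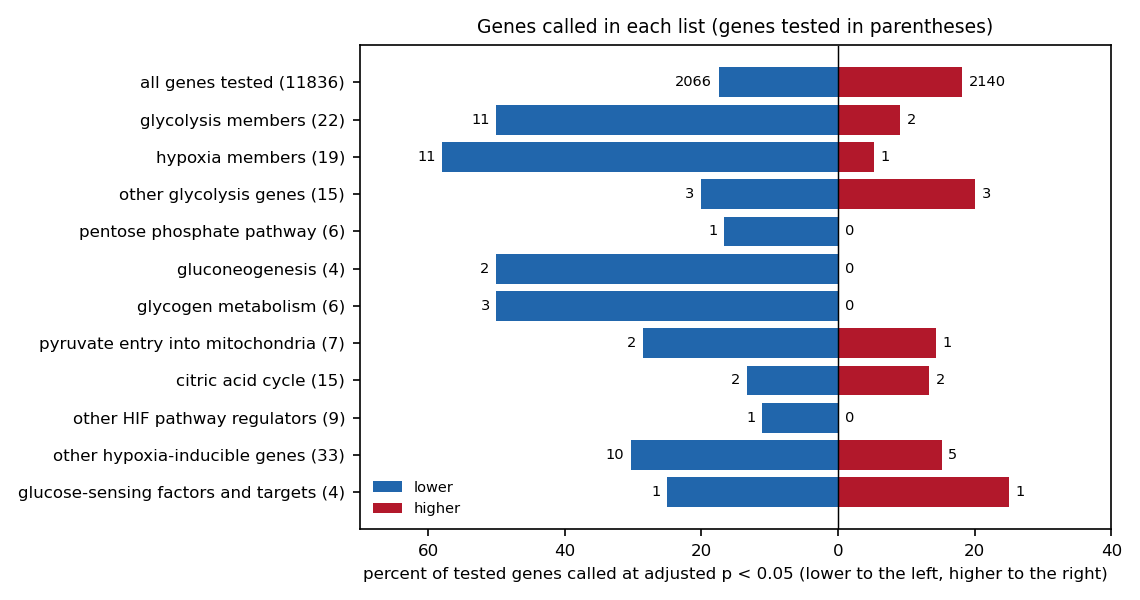
Percent of the tested genes of each list that fell (to the left) or rose (to the right) at adjusted p under 0.05, with the counts at the bar ends and the number tested in parentheses. The listed glycolysis genes (50% fell) and hypoxia genes (57.9%) stand beside 17.5% of all genes tested, 20% of other glycolysis genes and 30.3% of other hypoxia-inducible genes.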

How the data were processed

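The deposited table gives each probe set a log2 value on each array. The scale was judged from the range (2.65 to 13.22); the design allowed for linear values too, and the log2 values were used as the authors deposited them. The submitters' processing notes name MAS5, without a role or version; how probes were summarised was not given in the sources used here. The table has 45141 probe sets, of which 104 are controls; of the other 45037 the platform annotation gave 28898 one symbol, 551 several and 15588 none. The dimmest 40% of probe sets, by their mean level, were dropped, which kept 27022, and the brightest kept probe set stood for its gene.

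The groups, 4 arrays each, came from the labels. limma 3.58.1 in R 4.3.3 (lmFit and eBayes) compared them, with the variance prior estimated over all kept probe sets and Benjamini-Hochberg adjustment over 11836 genes; the model was tested on simulated data. The number of arrays limits the precision. For single control values a two-sided exact permutation test was used. Promoters came from a RefSeq table of GRCm38.p6, which held 42 of the 47 genes; the 50 bases after the start were left out.

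The 47 genes, the other gene lists and the tests were chosen with earlier results of these data known. All arrays' values are given for genes that passed and for a few key genes either way; of each other list up to 3 genes with the smallest adjusted p are named. Alternatives were offsets of 1 and 64, quantile or 75th percentile scaling, other filters, other uses of a gene's probe sets, a trended and robust prior, array weights, blocks by replicate number or array set, each array set alone, and each array left out.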

Additional observations from a re-analysis of the deposited data

Results flagged for a closer look

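Each value on 1 array was compared with the other 3 of its group by the gap to the nearest, divided by the group's whole range. Of 92 such groups 10 had an array beyond the 95% critical value of Dixon's test for 4 samples, where chance gives about 1 in 20. Deleted replicate 1 was that array in 7 of the 10.

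Deleted replicate 1 was the highest of its group for Pfkfb3 (7.93, gap 0.917 of the range), Vhl (7.66, 0.912), Vegfa (9.01, 0.880), Higd1a (11.02, 0.842) and Egln1 (9.15, 0.841), and the lowest for Pdk3 (8.57, 0.838). Its Gapdh control also had the largest excess of 3′ over 5′ signal (0.72, gap 0.865). The other flagged arrays were deleted replicate 4 for Slc16a1, the highest at 10.50 (0.854), control replicate 3 for Hk2, the highest at 9.67 (0.861), and control replicate 2 for Hif1an, the lowest at 6.56 (0.942). Over the 41 tested genes, deleted replicate 1 was the highest array of its group for 22 and the lowest for 10. Its part in these values was not tested beyond the differences given without it.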

How the results depend on the processing

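Of the 25 listed genes that passed, 21 passed the same way in every alternative outside the fits within 1 array set, and 12 with those fits counted. The smaller set compares 1 deleted array with 2 controls, so its lost calls say little about stability. Within the larger set, of 3 deleted and 2 control arrays, 8 of the calls were lost. Beside Hk1, Hif1a, Kdm3a and Higd1a these were Tpi1 (adjusted p = 0.0536), Ndrg1 (0.0602), Vegfa (0.0829) and Pdk3 (0.136). The number of genes that passed was 4206, and 2114 and 2158 within the larger and smaller array set, which have fewer arrays; leaving out 1 array gave 3426 to 4673. The glycolysis genes that fell (11) became 20 with each probe set counted alone and 5 within the smaller array set, and 10 to 13 with 1 array left out. Those that rose (2) became 4 with quantile normalization, with the lowest 60% left out or with a trended and robust prior, 3 with mean of probe sets, offset 64, 75th percentile scaling or array weights, 0 within the smaller array set, and 2 to 3 with 1 array left out. The glycolysis median (-0.21) was -0.18 with an offset of 64, -0.23 with each probe set alone, -0.25 with array weights, -0.22 with array set as a block and -0.26 and -0.19 within the array sets, and -0.23 to -0.20 with 1 array left out. The hypoxia genes that fell (11) were 7 within the larger array set and 9 to 13 with 1 array left out. Those that rose (1) became 0 with quantile normalization, mean of probe sets, the replicate block or within either array set, and 0 to 1 with 1 array left out. The hypoxia median (-0.20) was -0.28 with mean of probe sets or array weights, -0.25 with each probe set alone, -0.30 within the smaller array set, and -0.28 to -0.19 with 1 array left out.

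With array set as a block and without deleted replicate 1, an alternative chosen after seeing the data, 5411 genes passed; 14 glycolysis and 15 hypoxia genes fell, 3 and 1 rose, and the medians were -0.22 and -0.27. The labels do not say whether the replicate numbers pair the samples. The correlations of deviations between arrays of replicates 1 to 4 were 0.025, 0.224, -0.131 and 0.289. They cannot decide on pairing, since the arrays of replicate 3 lie in different array sets. With the replicate block 3906 genes passed, 11 glycolysis and 10 hypoxia genes fell, and 2 and 0 rose.

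Differences that changed sign were those of Hif1a (-0.018 with mean of probe sets), Hif1an (-0.050 with array weights, -0.080 within the smaller set, -0.069 without deleted replicate 1, up to 0.13 with 1 array left out, and -0.061 with the set block and without deleted replicate 1), Ldhb (0.096 within the smaller set, and -0.053 to 0.021 with 1 array left out), Pfkl (0.020 within the smaller set), and Pdp1 (0.070) and Txnip (-0.0014) with mean of probe sets; the cause was not tested.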

Other observations

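Pathways that branch from glycolysis or take up its products were counted as well, beside 17.5% of all genes that fell and 18.1% that rose. Of 15 citric acid cycle genes tested 2 fell and 2 rose (median 0.0079). Suclg2, a subunit of succinyl-CoA ligase, fell (-0.54 ± 0.06, adjusted p = 0.000160), whereas Ogdh rose by 0.36 ± 0.09 (adjusted p = 0.0102) and the fumarase Fh1 by 0.15 ± 0.04 (adjusted p = 0.0269). The Fh1 call was lost without deleted replicate 3 or 4 or control replicate 1, 2 or 3 (adjusted p = 0.0534 to 0.0717) and with the replicate block (0.0559). The mean of the Ogdh probe sets gave 0.14 and did not pass (adjusted p = 0.112). Of 7 genes that bring pyruvate into mitochondria, the phosphatase Pdp1 (-0.24 ± 0.06, adjusted p = 0.0106) and the dehydrogenase subunit Pdha1 (-0.20 ± 0.05, adjusted p = 0.0131) fell, and the pyruvate carrier subunit Mpc1 rose (0.19 ± 0.05, adjusted p = 0.0163). With mean of probe sets Pdp1 changed sign (0.070, adjusted p = 0.239) and Pdha1 did not pass (-0.22, adjusted p = 0.0503). Of 6 pentose phosphate genes 1 fell, the isomerase Rpia (-0.16 ± 0.05, adjusted p = 0.0304), and 0 rose. The Rpia call was lost with quantile normalization (adjusted p = 0.0501) and without deleted replicate 3 or 4 or control replicate 1 or 2 (0.0764 to 0.0822).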
